A study of Mus musculus with 9 samples.

Results

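Chemokines are small secreted proteins that steer leukocytes along gradients, and cytokines of the interleukin-1, interleukin-6 and tumour necrosis factor families set the inflammatory state that calls those cells in. The genes described here are 50 chemokines, cytokines and chemokine receptors, taken from a list of gene symbols: 28 chemokines, 7 signalling chemokine receptors, 4 atypical receptors and 11 cytokines. Each of the 50 had exactly 1 probe set with a single gene symbol, out of 22180 genes measured. Membership goes by gene symbol and family, and the list was drawn up with earlier results of these data known.

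RNA came from female FVB mice, with 1 Mouse Gene 2.0 ST array per mouse and 3 arrays per group. The metastatic and the non-metastatic tumours both came from Wnt1+/- mice of the MMTV-Wnt1 line, in which the promoter of the mouse mammary tumour virus drives the secreted growth factor Wnt1 in mammary epithelium. They differ in whether metastasis was recorded. The normal mammary glands came from littermates wild type for the transgene. From 6 weeks of age mice of all 3 groups drank 6% sucrose with doxycycline at 200 µg/ml, and the labels name no doxycycline-responsive transgene. Tumours were taken at a size of 20 mm. Their onset was recorded at 251, 194 and 242 days of age for metastatic tumours 1, 2 and 3. For non-metastatic tumours 1, 2 and 3 it was 306, 192 and 247 days. The mice were 281 to 300 days old in the metastatic group and 222 to 354 days in the non-metastatic group, against 533 to 556 days for the normal glands, so age and tumour status cannot be told apart in any comparison with normal gland.

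Chemokines are sorted by the spacing of their first cysteines into CC, CXC, CX3C and C types. CC chemokines mostly draw monocytes, eosinophils and T cells, and several CXC chemokines draw neutrophils. Signalling receptors (Ccr and Cxcr) move the cell, whereas atypical receptors (Ackr) bind chemokines without that signal and remove or transport them. In the mouse mammary gland, eosinophils and macrophages drawn by such factors take part in the growth of the ducts, and in tumours the Cxcl12 and Cxcr4 pair is known for its part in the spread of cells.

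Values are log2 intensities after RMA, so a difference of 1 is a doubling, and levels are not compared between genes. Array medians lay between 5.80 and 5.94. The tissue labels were checked against markers. The mean log2 level of 9 epithelial markers was 10.04 to 10.45 in metastatic tumours and 9.49 to 10.55 in non-metastatic tumours, against 9.18 to 9.64 in normal glands. That of 9 white adipocyte markers was 6.60 to 7.19 and 6.30 to 7.93 in these tumour groups, against 11.04 to 12.03 in normal glands. Some arrays stood apart. Normal gland 2 had a mean of 9.28 over 10 epidermis markers and 10.10 over 8 skeletal muscle markers, against 5.09 and 5.16 for epidermis and 5.85 and 6.34 for muscle in normal glands 1 and 3. Non-metastatic tumour 2 had a mean of 6.27 over 10 neutrophil markers, against 4.98 to 5.56 on the other 8 arrays. Results are therefore given with and without these arrays. The samples are pieces of tissue, so fewer cells of a type and less RNA per cell cannot be told apart.

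**Figure D1:**
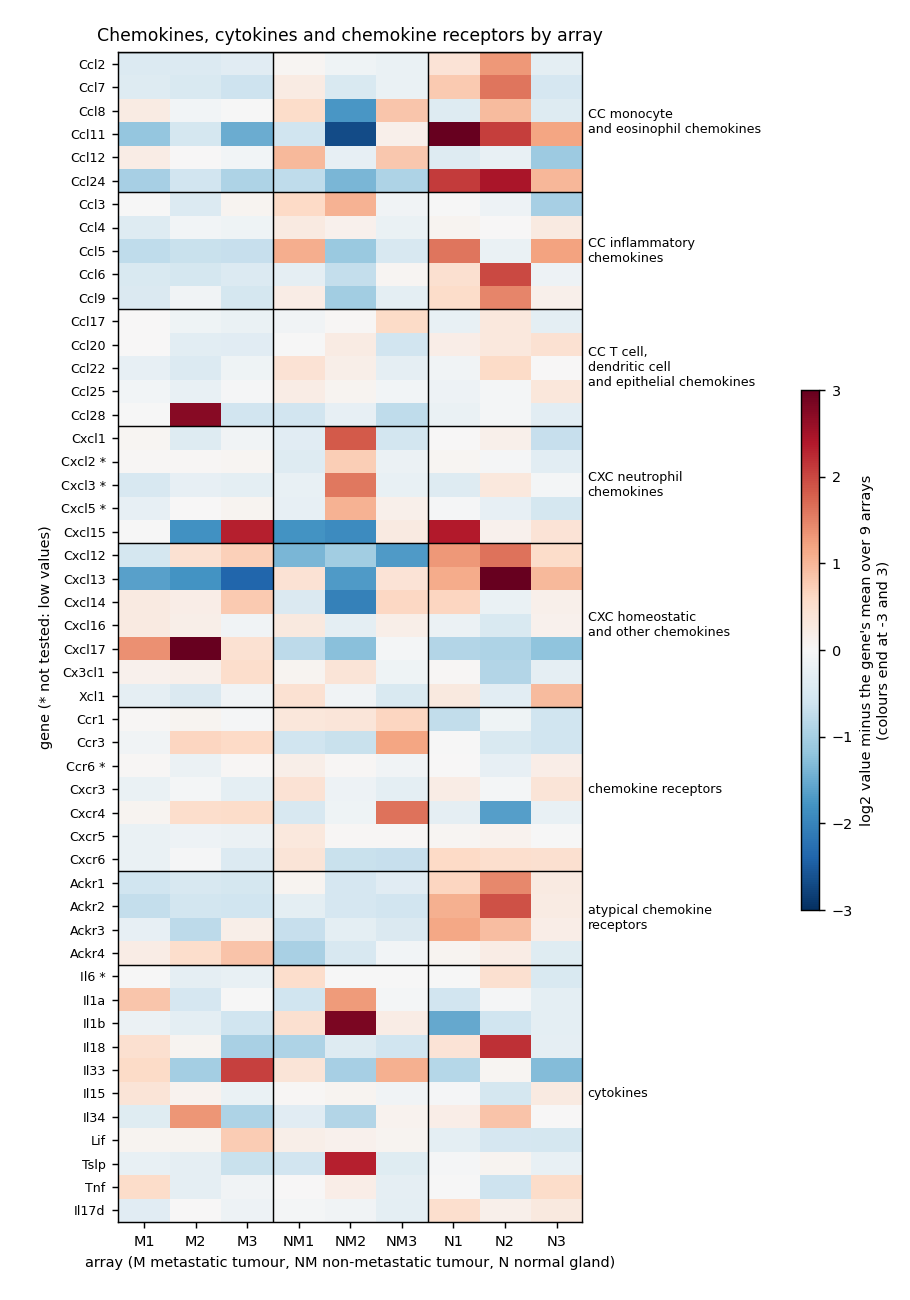
Heat map of the 50 genes (rows, grouped by role) on 9 arrays (columns: 3 metastatic tumours, 3 non-metastatic tumours, 3 normal glands). Colour gives how far a log2 value lies from the average of its gene on the 9 arrays, cut at -3 and 3, and genes marked * were not tested. Ccl11, Ccl24 and Cxcl13 are lower in the 6 tumours, Cxcl1, Cxcl3, Il1b and Tslp are high in non-metastatic tumour 2, and Cxcl17 is high in the metastatic tumours.

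Of the 50 genes, 45 passed the filter on low values (above the array's 30th percentile, which lay between 5.23 and 5.33, on at least 3 arrays). Cxcl2, Cxcl3, Cxcl5, Ccr6 and Il6 did not. Between all 6 tumours and the 3 normal glands, 11 of the 45 passed an adjusted p under 0.05 in limma, or 24.4%, where 25.2% of all 16032 genes tested did. Of these, 2 rose and 9 fell. That is 4.44% higher and 20% lower among the 45, beside 15.2% higher and 10% lower among all genes. The tumours and normal glands did not overlap in 10 of the 45 (22.2%), beside 27.7% of all genes. The median log2 change was -0.19 over the 45, with a range of -3.33 to 1.51, and 0.059 over all genes. Leaving out one array at a time gave between 5 of these genes (without normal gland 1) and 13. Without normal gland 2 it was 7. With both normal gland 2 and non-metastatic tumour 2 left out, 8 passed, 3 higher and 5 lower. Of these, 6 were among the 11, and the joining ones, Ccl8 and Ccl12, were higher.

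**Figure D2:**
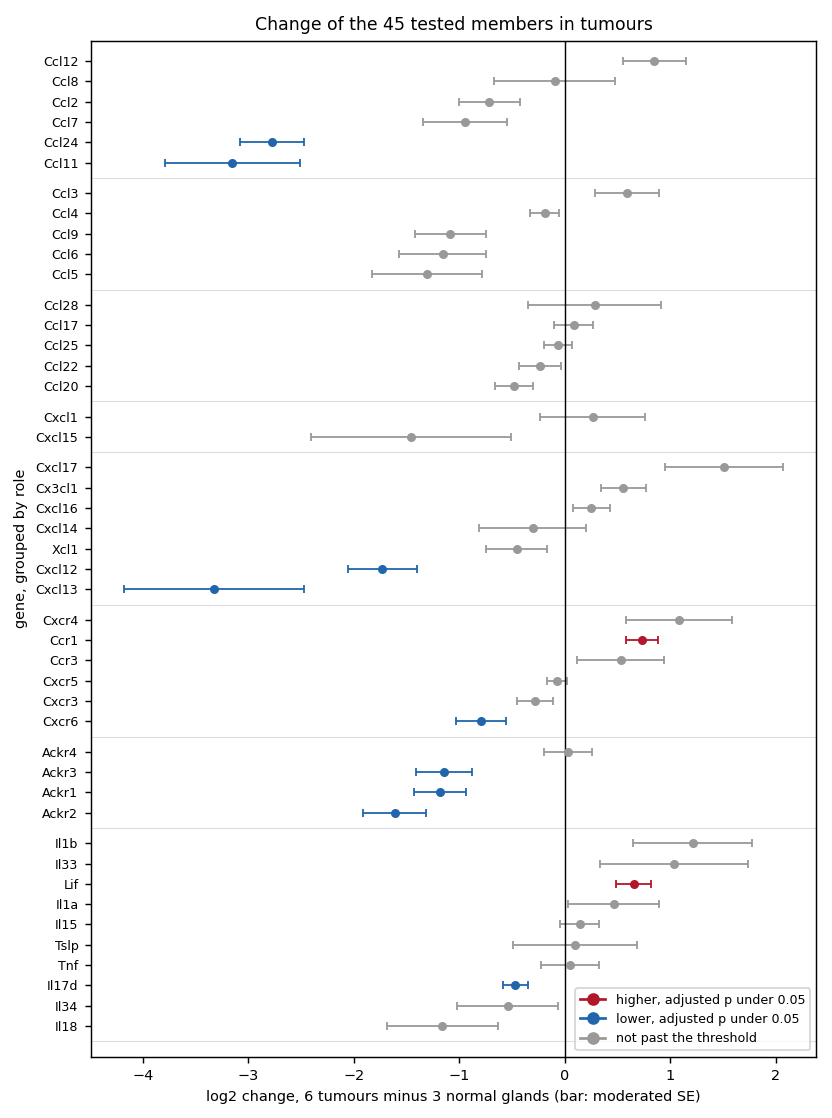
Log2 change of the 45 tested genes, mean of both tumour groups minus normal gland (points, with limma's moderated SE as bars), grouped by role from CC chemokines at the top to cytokines at the bottom. Red points (Ccr1 and Lif) rose, blue points (9 genes) fell, and grey points did not pass an adjusted p under 0.05.

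The eotaxins, which draw eosinophils through the receptor Ccr3, were among the genes that fell. Ccl11 (eotaxin-1) had log2 values of 7.12, 7.76 and 6.79 in metastatic tumours and 7.69, 5.60 and 8.44 in non-metastatic tumours, against 11.33, 10.36 and 9.47 in normal glands. All 6 tumours lay below all 3 normal glands, and non-metastatic tumour 2 was the lowest. The log2 change was -3.15 (SE 0.64, adjusted p = 0.012 in limma), an 8.89-fold lower level. Without normal gland 1 the adjusted p was 0.052.

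Ccl24 (eotaxin-2), a product of alternatively activated macrophages, had 5.44, 5.85 and 5.51 in metastatic tumours and 5.68, 5.06 and 5.52 in non-metastatic tumours, against 8.54, 8.88 and 7.43 in normal glands. The groups did not overlap, and the tumours lay near the 30th percentile of their arrays. It fell by 2.77 (SE 0.31, adjusted p = 0.0018), or 6.84-fold, and stayed past the threshold with each array left out and with both deviating arrays left out (adjusted p = 0.016). Their receptor Ccr3 was at 4.67, 5.43 and 5.38 in metastatic tumours and 4.19, 4.11 and 5.96 in non-metastatic tumours, against 4.77, 4.32 and 4.19 in normal glands, and was above the 30th percentile on only 3 arrays. Of the eosinophil markers, 4 were in the table, with a mean level between 5.03 and 5.19 on every array. That is under the 30th percentile of each array (5.23 to 5.33), and only 1 of the 4 passed the filter. These markers therefore cannot show whether eosinophils changed. The mean of 10 fibroblast markers was 7.97 to 9.36 in metastatic and 6.78 to 9.57 in non-metastatic tumours, against 10.60 to 10.84 in normal glands, and that of 15 macrophage markers 8.59 to 8.66 and 7.99 to 8.95, against 8.90 to 9.81. The part of these cell types in the fall of Ccl11 and Ccl24 was not tested.

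Ccl11 lies in a run of neighbouring genes, Ccl2, Ccl7, Ccl11, Ccl12 and Ccl8 (RefSeq, GRCm38.p6), and its neighbours did not pass. Ccl2, the main monocyte attractant, averaged 6.64 ± 0.05 in metastatic and 6.94 ± 0.14 in non-metastatic tumours, against 7.50 ± 0.79 in normal glands (SD, n = 3 each), a difference of -0.71 (limma adjusted p = 0.11). Ccl7, a relative of Ccl2, differed by -0.94 (adjusted p = 0.12). For both genes the highest array was normal gland 2, at 8.33 and 8.42. Ccl8 averaged 8.32 ± 0.17 and 8.16 ± 1.41 in the tumour groups, against 8.33 ± 0.78 in normal glands. Ccl12, a mouse monocyte attractant named here after its value was seen, differed the other way, by 0.85 (SE 0.30, adjusted p = 0.069). With both deviating arrays left out, Ccl8 and Ccl12 passed and were higher in tumours.

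A second run of neighbours, Ccl5, Ccl9, Ccl6, Ccl3 and Ccl4, holds the inflammatory CC chemokines, several of which are ligands of Ccr1. None of the 5 passed, while 3 had an unadjusted p under 0.05, as 39.2% of all genes did. Ccl9 averaged 9.20 ± 0.23 in metastatic and 9.18 ± 0.64 in non-metastatic tumours, against 10.28 ± 0.67 in normal glands (SD, n = 3 each). Its difference of -1.08 (SE 0.34) just missed the threshold in limma (adjusted p = 0.0503). Ccl6 differed by -1.16 (adjusted p = 0.075) and was highest in normal gland 2, at 10.52. Ccl5, made by T and NK cells, was at 6.73, 6.83 and 6.80 in metastatic tumours and 8.57, 6.38 and 7.01 in non-metastatic tumours, against 9.10, 7.30 and 8.69 in normal glands. Non-metastatic tumour 1 lay within the range of the normal glands, and the difference of -1.31 did not pass (adjusted p = 0.10). The mean of 13 T and NK cell markers was 6.25 in non-metastatic tumour 1 and 5.56 to 5.86 in the other 5 tumours, against 5.93 to 6.57 in normal glands. The part of these cells in the Ccl5 values was not tested.

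Among the chemokines of T cells, dendritic cells and epithelia (Ccl17, Ccl20, Ccl22, Ccl25 and Ccl28), 0 of 5 passed in limma and 1 had an unadjusted p under 0.05. That was Ccl20, the ligand of Ccr6, with a difference of -0.48 (adjusted p = 0.088). Ccl25, an attractant of gut T cells, stayed between 6.38 and 6.95 on all 9 arrays. Ccl28, which draws IgA-producing plasma cells into mucosa and the lactating gland, was at 9.01 in metastatic tumour 2 and between 5.52 and 6.27 on the other 8 arrays.

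Of the 4 atypical receptors, 3 fell, where 10% of all genes did, and Ackr4 did not pass. The 3 include Ackr1, which met the filter only through the normal glands, where it is high. They also include Ackr3, whose call was lost without normal gland 1 or 2. No result is drawn from this share. Ackr2, which scavenges inflammatory CC chemokines such as the eotaxins and is known from lymphatic endothelium, had 6.49, 6.65 and 6.60 in metastatic tumours and 6.92, 6.71 and 6.63 in non-metastatic tumours, against 8.27, 9.10 and 7.46 in normal glands. The tumours were tightly grouped and all lay below the normal glands. Ackr2 fell by 1.61 (SE 0.30, adjusted p = 0.0089 in limma), or 3.06-fold.

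Ackr1, the Duffy antigen receptor of venule endothelium and red cells, had 5.01, 5.12 and 5.08 in metastatic tumours and 5.69, 5.09 and 5.25 in non-metastatic tumours, against 6.24, 7.05 and 5.88 in normal glands. No tumour overlapped the normal glands, and the metastatic tumours were below the 30th percentile of their arrays. Ackr1 fell by 1.18 (SE 0.25, adjusted p = 0.013). It met the filter on the 3 normal glands and 2 non-metastatic tumours, and on no metastatic tumour, so its passing the filter depended on the group where it is high, and the size of the difference is uncertain. The calls of Ackr1 and Ackr2 held with each array left out and with both deviating arrays left out (changes of -0.79 and -1.19, adjusted p = 0.043 and 0.038).

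Ackr3 removes Cxcl12 from the tissue. It had 6.75, 6.21 and 7.18 in metastatic tumours and 6.31, 6.70 and 6.58 in non-metastatic tumours, against 8.18, 7.93 and 7.20 in normal glands. Metastatic tumour 3 (7.18) lay just below normal gland 3 (7.20). The fall of 1.15 (SE 0.27, adjusted p = 0.018) lost its call with normal gland 1 left out (0.075), with normal gland 2 left out (0.074) and with both deviating arrays left out (0.10). The mean of 11 endothelial markers was 7.44 to 8.05 in metastatic and 7.08 to 7.95 in non-metastatic tumours, against 8.27 to 8.85 in normal glands. Its part in the lower Ackr values was not tested.

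Cxcl12, a chemokine of stromal cells that acts on Cxcr4, had 8.58, 9.55 and 9.82 in metastatic tumours and 7.73, 8.05 and 7.39 in non-metastatic tumours, against 10.39, 10.71 and 9.64 in normal glands. The 3 groups stood in steps, with only metastatic tumour 3 inside the range of the normal glands. Over all tumours Cxcl12 fell by 1.73 (SE 0.33, adjusted p = 0.0093 in limma), a 3.32-fold lower level. The call was lost without both deviating arrays (change -1.58, adjusted p = 0.059) and held with any 1 array left out. Its receptor Cxcr4 was at 9.49, 9.92 and 9.95 in metastatic tumours and 8.92, 9.27 and 11.02 in non-metastatic tumours, against 9.13, 7.74 and 9.17 in normal glands. The groups overlapped, and the difference of 1.08 (SE 0.50) did not pass (adjusted p = 0.15).

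Cxcl13, the attractant of B cells to lymphoid follicles through Cxcr5, had the lowest log2 change of the 45 genes. It was at 6.20, 6.03 and 5.44 in metastatic tumours and 8.27, 6.12 and 8.25 in non-metastatic tumours, against 8.93, 12.41 and 8.80 in normal glands. All tumours were lower than all normal glands, and normal gland 2 stood far above the other arrays. The fall of 3.33 (SE 0.85, adjusted p = 0.025 in limma) became 2.15 without normal gland 2 and was then no longer past the threshold (0.054). It was also lost without metastatic tumour 3 (0.053). Without both deviating arrays the change was -1.79 (adjusted p = 0.014). Cxcr5 was between 5.26 and 5.77 on all 9 arrays. The mean of 7 B cell markers was 5.22 to 6.07 in metastatic and 5.28 to 5.83 in non-metastatic tumours, against 6.10 to 6.35 in normal glands. Among them Jchain varied most, at 5.37, 9.85 and 5.29 in metastatic tumours and 8.51, 5.12 and 5.69 in non-metastatic tumours. Normal glands had 10.44, 8.30 and 10.56. Between all tumours and normal gland the median change of the 6 tested was -0.17, and 1 fell (16.7%, beside 25.2% of all genes). The part of B cells was not tested.

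The other members of this role did not pass in the comparison of all tumours with normal gland. Cxcl14, an epithelial chemokine, ranged from 10.68 to 11.27 in metastatic and from 8.47 to 11.12 in non-metastatic tumours, against 10.30 to 11.13 in normal glands. Cxcl16, the membrane-anchored ligand of Cxcr6, ranged from 9.37 to 9.74 and from 9.17 to 9.75 in these tumours, against 9.02 to 9.60. Cx3cl1 (fractalkine), which holds Cx3cr1-bearing monocytes, differed by 0.56 (adjusted p = 0.092). Xcl1, which draws cross-presenting dendritic cells, differed by -0.46 (adjusted p = 0.28).

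**Figure D3:**
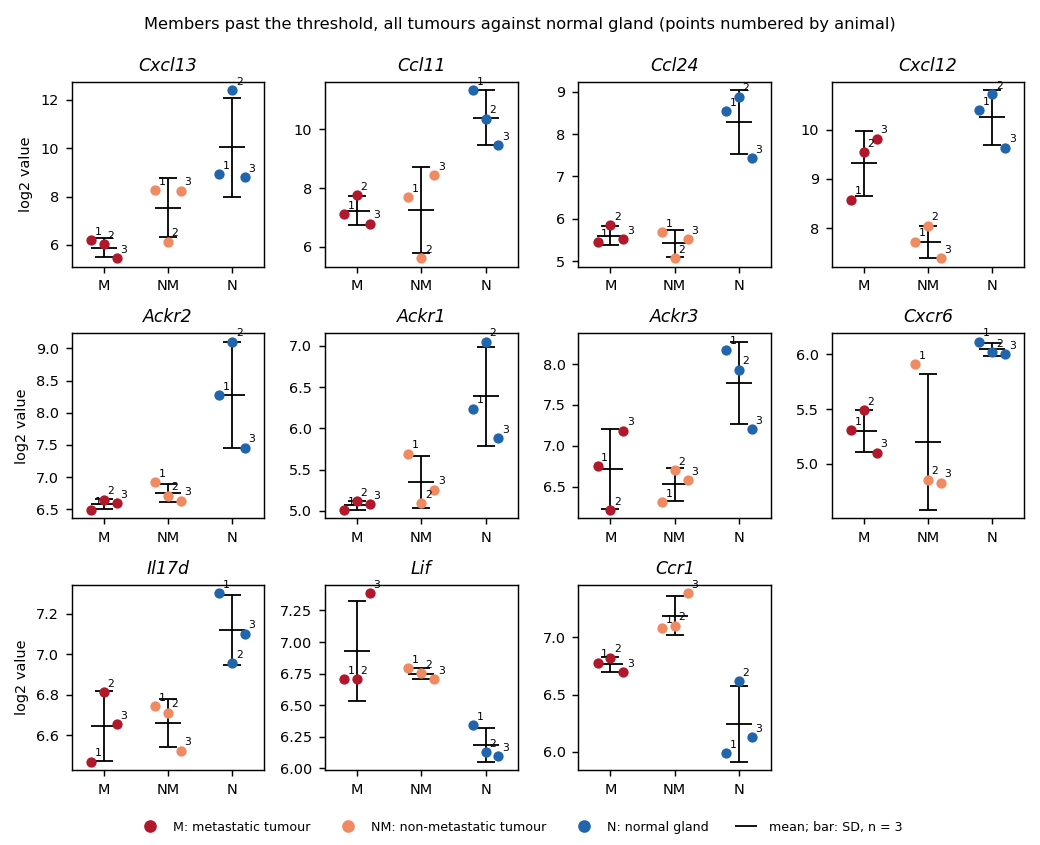
Log2 values of the 11 genes past the threshold between all tumours and normal gland, one panel per gene, with 1 point per animal numbered as in the text and the mean with SD (n = 3) for metastatic tumours (M), non-metastatic tumours (NM) and normal glands (N). The vertical axes differ between panels and do not start at 0. In 10 of the 11 panels the 6 tumours do not overlap the 3 normal glands, and the exception is Cxcl12, where metastatic tumour 3 lies above normal gland 3.

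Among the 6 signalling receptors tested 1 rose and 1 fell (33.3%, beside 25.2% of all genes). Ccr1, a receptor of monocytes and neutrophils for Ccl3, Ccl5 and related ligands, had 6.78, 6.82 and 6.69 in metastatic tumours and 7.08, 7.10 and 7.38 in non-metastatic tumours, against 5.99, 6.61 and 6.13 in normal glands. Every tumour was above every normal gland. Ccr1 rose by 0.73 (SE 0.15, adjusted p = 0.012 in limma), and the adjusted p was 0.0501 without normal gland 1.

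Cxcr6, the Cxcl16 receptor of T and NKT cells, had 5.31, 5.49 and 5.10 in metastatic tumours and 5.91, 4.85 and 4.83 in non-metastatic tumours, against 6.12, 6.02 and 6.00 in normal glands. Non-metastatic tumour 1 was close to the normal glands and the rest lay lower. The fall of 0.80 (SE 0.24, adjusted p = 0.043) rests on a narrow margin: the call was lost in 14 of 22 alternatives, with adjusted p up to 0.17. Without each normal gland in turn it was 0.13, 0.12 and 0.084. It was 0.076 and 0.066 without non-metastatic tumours 2 and 3, and 0.079, 0.055 and 0.085 without metastatic tumours 1, 2 and 3. Cxcr3, the receptor of activated T cells, lay between 6.10 and 6.82 on all 9 arrays, and Ccr6 stayed below the 30th percentile on every array.

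Of the 10 cytokines tested, 1 rose and 1 fell (20%, not above the 25.2% of all genes). Lif, a cytokine of the interleukin-6 family that signals through Lifr and Il6st to Stat3, had 6.70, 6.70 and 7.39 in metastatic tumours and 6.79, 6.75 and 6.70 in non-metastatic tumours, against 6.34, 6.13 and 6.09 in normal glands. All tumours lay above all normal glands, and metastatic tumour 3 was the highest. Lif rose by 0.65 (SE 0.16, adjusted p = 0.023 in limma), with the call lost without normal gland 1, 2 or 3 (0.052, 0.083 and 0.061) and without both deviating arrays (0.13).

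Il17d, a less studied member of the interleukin-17 family, had 6.47, 6.81 and 6.65 in metastatic tumours and 6.74, 6.71 and 6.52 in non-metastatic tumours, against 7.30, 6.95 and 7.10 in normal glands. The groups did not overlap, though the gap between metastatic tumour 2 and normal gland 2 was small. Il17d fell by 0.47 (SE 0.12, adjusted p = 0.024), and the call was lost without normal gland 1 (0.096) and without both deviating arrays (0.061).

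The remaining cytokines did not pass. Il33, an alarmin kept in the nucleus, was at 9.02, 7.44 and 10.51 in metastatic tumours and 8.85, 7.46 and 9.53 in non-metastatic tumours, against 7.61, 8.52 and 7.16 in normal glands. The groups overlapped, and the difference of 1.04 had an SE of 0.70 (adjusted p = 0.31). Il34, which binds the receptor Csf1r, was highest in metastatic tumour 2 (8.68), and its difference was -0.54 (adjusted p = 0.44). Il15, a factor of NK and memory T cells, lay between 6.83 and 7.72 on all arrays. Il18, named after its value was seen, had 8.85 in normal gland 2 and 5.71 to 7.15 on the 6 tumours (difference -1.16, adjusted p = 0.14). Tnf lay between 6.32 and 7.49 on all 9 arrays (difference 0.053, adjusted p = 0.91), and Il6 stayed below the 30th percentile on every array.

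Taken separately, each tumour group was set against the same 3 normal glands, so the comparisons share their controls. In metastatic tumours 7 of 45 passed, 2 higher and 5 lower, or 15.6%, where 15.1% of all genes did (8.5% higher and 6.59% lower). Over all genes these were 1362 higher and 1057 lower, and 964 higher and 1116 lower after quantile normalization, so the balance turned. The count ran from 1 to 9 with one array left out, and it was 1 without normal gland 1 or metastatic tumour 1 and 2 without metastatic tumour 2 or 3. In non-metastatic tumours 8 of 45 passed, 1 higher and 7 lower, or 17.8%, where 20.9% of all genes did (12.6% higher and 8.36% lower). Over all genes these were 2017 higher and 1341 lower, or 2739 higher and 1143 lower after centring each array on its median. The count of the 45 ran from 3 (without normal gland 1) to 10, and it was 4 with normal gland 2 left out and 5 with non-metastatic tumour 2 left out. Ccl24 passed in both, and with every array left out, with changes of -2.68 in metastatic and -2.87 in non-metastatic tumours. Ccl11, Ackr1 and Ackr2 also passed in both, at -3.16, -1.32 and -1.70 in metastatic tumours and -3.14, -1.04 and -1.53 in non-metastatic tumours. In metastatic tumours the 3 calls were each lost without normal gland 1 or any 1 metastatic tumour, and that of Ccl11 also without normal gland 2. In non-metastatic tumours Ccl11 lost its call without normal gland 1 or 2, and Ackr2 without normal gland 1 or non-metastatic tumour 2 or 3. Ackr1 there kept it only without normal gland 3 or non-metastatic tumour 1. Because Ackr1 met the filter only through the normal glands, where it is high, nothing is drawn from its passing in both comparisons.

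The genes that passed in 1 of these comparisons were Cxcl13, Cxcl17 and Lif in metastatic tumours and Ackr3, Ccr1, Cxcl12 and Il17d in non-metastatic tumours. Cxcl13 fell by 4.16 in metastatic tumours (adjusted p = 0.031 in limma) and differed by -2.50 in non-metastatic tumours (adjusted p = 0.11). The Cxcl13 call was lost when normal gland 1 or any 1 metastatic tumour was left out (0.056 to 0.094). Ccr1 rose by 0.94 in non-metastatic tumours (adjusted p = 0.011) and kept its call with any 1 array left out. Lif in metastatic tumours kept its call only when non-metastatic tumour 3 was left out. Il17d in non-metastatic tumours lost it with any 1 of the 9 arrays left out, and Ackr3 with normal gland 1 or 2 or any 1 non-metastatic tumour left out. Whether a change differed between the tumour groups is the comparison of these groups with each other, which follows.

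Metastatic against non-metastatic tumours is the comparison named in the title of the series. None of the 45 genes passed in limma, where 0.00624% of all genes did, that is 1 gene, Coch, which encodes cochlin and is named after its value was seen (log2 change 4.18, adjusted p = 0.013). The count over all genes was 42 without non-metastatic tumour 3, 0 without metastatic tumour 1 or 2 or normal gland 2, and 2 without non-metastatic tumour 2 or metastatic tumour 3. An unadjusted p under 0.05 was reached by 6 of the 45, beside 5.16% of all genes, and the groups did not overlap in 7 of the 45 (15.6%), beside 10.5% of all genes. Of the 7, 3 were higher and 4 lower, beside 4.49% and 6% of all genes. The median log2 change was -0.020 over the 45 and -0.020 over all genes. With the replicates left out one at a time, none of the 45 passed in any fit. The 6 genes follow, and all remain above an adjusted p of 0.05.

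Cxcl12 was higher in all 3 metastatic tumours (8.58, 9.55 and 9.82) than in the 3 non-metastatic tumours (7.73, 8.05 and 7.39). The log2 difference was 1.59 (SE 0.38, unadjusted p = 0.0030, adjusted p = 0.85 in limma), and it was between 1.34 and 1.96 with any 1 array left out. Against normal gland, Cxcl12 differed by -0.93 in metastatic tumours (adjusted p = 0.13) and by -2.52 in non-metastatic tumours (adjusted p = 0.0071), a call kept with any 1 array left out and lost without both deviating arrays (0.053). All 10 fibroblast markers also had a positive log2 difference (median 0.40, highest 1.17, none past the threshold), though their means overlapped between the tumour groups. By array the mean was 9.09, 9.36 and 7.97 in metastatic tumours and 8.74, 6.78 and 9.57 in non-metastatic tumours. It was highest in non-metastatic tumour 3, where Cxcl12 was lowest, and 7.97 in metastatic tumour 3, the tumour with the highest Cxcl12. The part of fibroblasts in the Cxcl12 difference was not tested.

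Ackr4, which removes Ccl19, Ccl21 and Ccl25, was at 5.54, 5.86 and 6.18 in metastatic tumours and 4.36, 4.84 and 5.23 in non-metastatic tumours, with normal glands at 5.40, 5.53 and 4.96. The tumour groups did not overlap, and the normal glands lay between and within them. The difference of 1.05 (SE 0.26, unadjusted p = 0.0039, adjusted p = 0.87 in limma) concerns values near the 30th percentile, which 3 metastatic and 1 non-metastatic tumour exceeded.

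Cxcl17, a chemokine of mucosal epithelia, was at 9.44, 11.36 and 8.50 in metastatic tumours and 7.26, 6.80 and 7.99 in non-metastatic tumours, with normal glands at 7.17, 7.13 and 6.84. All 3 metastatic tumours exceeded every other array, and metastatic tumour 2 was the highest. The difference between the tumour groups was 2.42 (SE 0.65, unadjusted p = 0.0056, adjusted p = 0.87 in limma), or 5.35-fold, and it was 1.62 without metastatic tumour 2. Against normal gland Cxcl17 rose in metastatic tumours by 2.72 (adjusted p = 0.031). That call was lost without normal gland 1, 2 or 3 (0.081, 0.084 and 0.059) and without metastatic tumour 1 (0.076). In non-metastatic tumours the difference from normal gland was 0.31 (adjusted p = 0.77).

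The other 3 genes were lower in metastatic tumours. Il1b, the secreted interleukin-1, was at 6.56, 6.45 and 6.13 in metastatic tumours and 7.21, 9.57 and 6.95 in non-metastatic tumours, with normal glands at 5.20, 6.14 and 6.45. The difference of -1.53 (SE 0.65, unadjusted p = 0.046, adjusted p = 0.87 in limma) was -0.70 without non-metastatic tumour 2. Ccr1, whose values are given above, differed by -0.42 (unadjusted p = 0.038, adjusted p = 0.87). Cxcr5 was at 5.26, 5.30 and 5.28 in metastatic tumours and 5.77, 5.48 and 5.48 in non-metastatic tumours, close to the 30th percentile, and differed by -0.30 (unadjusted p = 0.025, adjusted p = 0.87).

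**Figure D4:**
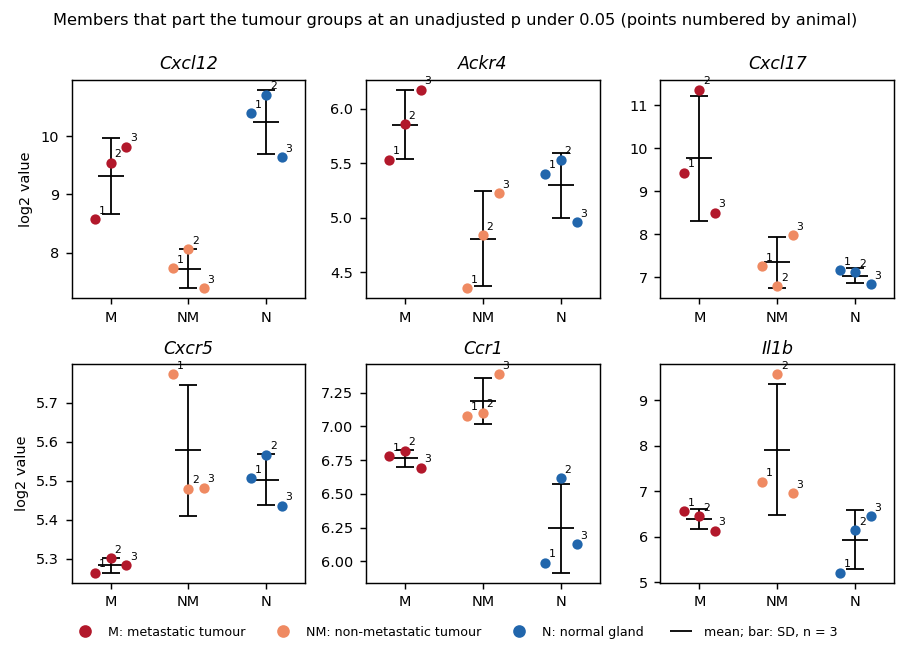
Log2 values of the 6 genes that part metastatic (M) from non-metastatic (NM) tumours at an unadjusted p under 0.05, beside normal glands (N), with 1 numbered point per animal and the mean with SD (n = 3). The vertical axes differ between panels and do not start at 0. Cxcl12, Ackr4 and Cxcl17 are higher in the 3 metastatic tumours, and Cxcr5, Ccr1 and Il1b are lower, none with an adjusted p under 0.05.

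Among the CXC chemokines that draw neutrophils through Cxcr2, 1 animal stood apart. Cxcl1 was at 6.77, 6.34 and 6.62 in metastatic tumours and 6.38, 8.56 and 6.18 in non-metastatic tumours, against 6.73, 6.88 and 6.03 in normal glands. Cxcl2 was at 5.11, 5.10 and 5.14 in metastatic tumours and 4.68, 5.81 and 4.90 in non-metastatic tumours, against 5.13, 5.04 and 4.75. Non-metastatic tumour 2 was the highest of the 9 arrays for both, and also for Cxcl3 (5.36, with the others at 3.31 to 4.09) and Cxcl5 (5.73, with the others at 4.17 to 4.84), which are named after their values were seen. The metastatic tumours lay below the non-metastatic tumours for Cxcl3 (3.31 to 3.54 against 3.55 to 5.36), at values mostly under the 30th percentile. For Cxcl2, Cxcl3 and Cxcl5 non-metastatic tumour 2 was the 1 array above the 30th percentile, so they were not tested.

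Cxcl1, Cxcl2 and Cxcl3 are neighbours in the genome, with Cxcl15 between them, and are classic targets of the transcription factor NF-kB, which interleukin-1 activates. Their proximal promoters are shown because these genes were high together in that tumour. The windows run from -110 to -21 relative to the RefSeq start (GRCm38.p6, plus strand), at chr5:90891135-90891224 for Cxcl1, chr5:90903789-90903878 for Cxcl2, chr5:90785991-90786080 for Cxcl3 and chr5:90794424-90794513 for Cxcl15. Capitals mark matches, on either strand, to an NF-kB-like motif that reads GGG, any 2 bases, then TTTCC.
Cxcl1: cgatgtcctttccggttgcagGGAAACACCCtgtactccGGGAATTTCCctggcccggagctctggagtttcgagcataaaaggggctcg
Cxcl2: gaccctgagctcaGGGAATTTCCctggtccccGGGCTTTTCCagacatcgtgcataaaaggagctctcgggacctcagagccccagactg
Cxcl3: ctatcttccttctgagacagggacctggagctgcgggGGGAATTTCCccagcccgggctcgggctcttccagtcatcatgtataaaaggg
Cxcl15: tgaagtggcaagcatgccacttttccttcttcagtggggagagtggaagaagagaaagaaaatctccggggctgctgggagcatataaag
Cxcl1 and Cxcl2 hold 2 matches each, Cxcl3 holds 1, and Cxcl15 has none of these letters in its 300 bases. The motif occurs in 1.63% of all 32851 promoter windows of 300 bases, and in 7 of the 40 windows found for 37 of the 50 genes (also Ccl9, Ccl20, Ccr3 and Il6). Cxcl5 and Il1b, also highest in that tumour, are not among the genes with a match, though no window was found for 13 of the 50 genes. Of the other genes with a match, Ccl9 (8.51) and Ccr3 (4.11) had their lowest value of all arrays in that tumour. Ccl20 (6.19) had its highest tumour value there, and Il6 was below the 30th percentile on every array. A match describes the sequence only.

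Cxcl15 (lungkine), which lies in the same run, did not share the pattern. It was at 6.70, 4.88 and 9.04 in metastatic tumours and 4.92, 4.81 and 6.98 in non-metastatic tumours, against 9.07, 6.83 and 7.13 in normal glands, so it varied widely within each group (difference -1.46, SE 0.95, adjusted p = 0.30 in limma). Il1b, described above, and Il1a and Tslp, named after their values were seen, were also highest in non-metastatic tumour 2. Il1a was at 7.52 there and 5.62 to 7.06 on the other 8 arrays. Tslp, an epithelial cytokine that acts on dendritic cells, was at 8.21 in that tumour and 5.20 to 5.95 elsewhere.

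The same tumour was the highest of the 9 arrays for 5 of the 10 neutrophil markers and not for Mmp9, Ly6g, Ngp, Camp and Elane. Of the 5, S100a8 (8.38), S100a9 (7.57) and Retnlg (6.78) lay at 3.98 to 5.94, 4.45 to 5.04 and 3.65 to 4.41 on the other 8 arrays. It was also the highest of the 6 tumours for 5 of the 10 epidermis markers. Krtdap had 10.32, Dsg1a 7.73 and Ivl 7.35, with the other 5 tumours at 5.54 to 6.13, 5.13 to 6.38 and 5.21 to 5.57, and the mean of the 10 epidermis markers was 6.12, against 5.08 to 5.44 in those tumours. Cxcr2, the receptor of these chemokines, had 7.40 there and between 5.54 and 6.00 elsewhere. Non-metastatic tumour 2 was also the lowest tumour for Ccl5, Ccl6, Ccl8, Ccl9, Ccl11, Ccl12, Ccl24, Ccr3, Cxcl14, Cxcl15, Cxcl16 and Cxcl17. It came from the youngest mouse, at 222 days. What part neutrophils or epidermal cells had in these values was not tested.

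**Figure D5:**
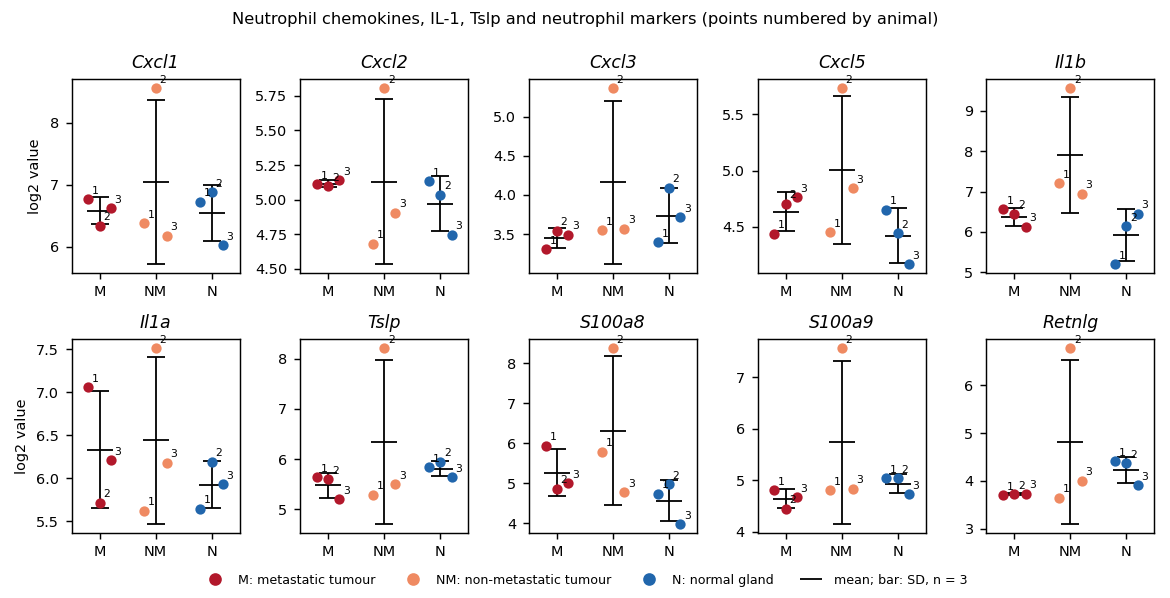
Log2 values of the neutrophil chemokines Cxcl1, Cxcl2, Cxcl3 and Cxcl5, of Il1b, Il1a and Tslp, and of S100a8, S100a9 and Retnlg, 3 of the 10 neutrophil markers, in metastatic tumours (M), non-metastatic tumours (NM) and normal glands (N), with 1 numbered point per animal and the mean with SD (n = 3). The vertical axes differ between panels and do not start at 0. Non-metastatic tumour 2 is the highest point in each panel, and the genes were chosen to show this animal: it was not the highest for 5 of the 10 neutrophil markers.

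Partner genes were described from lists chosen by function. Of 11 further chemokines, 8 were tested between all tumours and normal gland, 1 rose and 1 fell (25%, beside 25.2% of all genes). Cklf, a chemokine-like factor, rose by 0.58 (adjusted p = 0.012 in limma), and Pf4, the platelet chemokine, fell by 1.82 (adjusted p = 0.022). The Pf4 call was lost with normal gland 1 left out (0.059), with normal gland 2 left out (0.056, change -1.23) and with both deviating arrays left out (0.071, change -1.09). Of 13 further chemokine receptors, 9 were tested, 0 rose and 1 fell (11.1%, beside the same 25.2%). That was Cmklr1, the chemerin receptor of macrophages, endothelium and fat, at -1.83 (adjusted p = 0.0022), which kept its call with each array left out.

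Of 20 receptors and inhibitors that belong to the cytokines above, 18 were tested, 1 rose and 3 fell (22.2%, near the 25.2% of all genes). Il1rap, the shared subunit of the interleukin-1 and Il33 receptors, rose by 1.49 (SE 0.25, adjusted p = 0.0063 in limma). Over the alternatives tried this change ran from 0.55 to 1.64. Il1rap was at 8.21, 7.56 and 7.91 in metastatic tumours and 9.60, 9.01 and 8.41 in non-metastatic tumours. Normal glands were at 7.06, 6.91 and 6.90. The metastatic tumours lay below the non-metastatic tumours, and on their own they did not pass against normal gland. Lifr and Il6st, subunits that receive Lif, fell by 1.05 (adjusted p = 0.010) and 0.82 (adjusted p = 0.0096). Il6ra, the interleukin-6 receptor, fell by 1.10 (adjusted p = 0.025), a call lost without normal gland 1 (0.087) or normal gland 2 (0.10). Without both deviating arrays none of the 4 kept its call, with adjusted p between 0.054 and 0.099.

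Of 18 feedback genes of NF-kB and STAT3, 17 were tested, 1 rose and 2 fell (17.6%, beside 25.2% of all genes). The NF-kB inhibitors Nfkbia and Nfkbie fell by 0.87 (adjusted p = 0.026) and 0.83 (adjusted p = 0.012 in limma). The Nfkbia call was lost without normal gland 1 (0.081), normal gland 3 (0.059) or metastatic tumour 3 (0.051). Stat3 rose by 0.56 (adjusted p = 0.045), a call lost without any of 7 of the 9 arrays, with adjusted p between 0.067 and 0.17, and without both deviating arrays (0.22). Between the tumour groups none of the members of these 4 lists passed.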

How the data were processed

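RNA from 9 tissue samples was hybridised to Mouse Gene 2.0 ST arrays. The authors deposited log2 intensity values normalized by RMA, per the submitters' processing notes. The version and genome build are not given in the sources used here. Of the 41345 probe sets, named through the platform annotation, 23521 had 1 gene symbol, 1814 several, and 16010 were not listed. The probe set with the highest mean stood for each of 22180 genes.

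The 16032 genes that exceeded the 30th percentile of an array on 3 or more arrays entered limma 3.58.1 in R 4.3.3, with 1 mean per group over 9 arrays, 6 residual degrees of freedom, and Benjamini-Hochberg adjustment over all genes tested at 0.05. The comparisons were metastatic against non-metastatic tumours, all tumours (both groups weighted equally) against normal gland, and each tumour group against normal gland. The fit was tested on simulated data. Labels name 1 mouse per sample, and the number of arrays limits precision.

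Members and lists were chosen with earlier results of these data known. Values for every array are given for members past the threshold in any comparison, or whose tumour groups did not overlap at an unadjusted p under 0.05. Up to 3 others per role (those with the highest means) and up to 4 called genes per list are named, and further genes are said to be named after their values were seen. Other filters, probe set rules, scalings, variance settings, sample sets, a replicate block and left-out arrays were tried. Leaving out both deviating arrays and taking the percentile over all probe sets were chosen after seeing the data. Promoters come from RefSeq (GRCm38.p6). No depth applies to arrays.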

Additional observations from a re-analysis of the deposited data

Results flagged for a closer look

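Among the 6 tumours, taken as 1 group, 13 of the 50 genes had a sample whose gap to its nearest neighbour exceeded Dixon's 95% critical share of the range, or 26%. Among the 45 tested genes it was 10, or 22.2%, beside 11.2% of all genes tested. Chance gives about 1 in 20. In 6 of the 13 the sample was non-metastatic tumour 2. It was the highest for Cxcl1 (8.56, others 6.18 to 6.77), Cxcl3 (5.36, others 3.31 to 3.57), Cxcl5 (5.73, others 4.44 to 4.84), Il1b (9.57, others 6.13 to 7.21) and Tslp (8.21, others 5.20 to 5.64), and the lowest for Ccl8 (6.54, others 8.20 to 9.11). Non-metastatic tumour 1 was the highest for Ackr1 (5.69), Ccl5 (8.57), Cxcr3 (6.82) and Il6 (3.87), with the other 5 tumours at 5.01 to 5.25, 6.38 to 7.01, 6.10 to 6.34 and 3.09 to 3.34. Non-metastatic tumour 3 was the highest for Ccl17 (5.98, others 5.22 to 5.45). Metastatic tumour 2 was the highest for Ccl28 (9.01, others 5.52 to 6.27), and metastatic tumour 3 for Lif (7.39, others 6.70 to 6.79).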

How the results depend on the processing

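Direction was followed for the named called genes and the 6 genes that part the tumour groups, and none of these reversed under any alternative. Other members could turn. Ccl8 differed by -0.093 for all tumours as reported, and was called higher with both deviating arrays left out. Between metastatic and non-metastatic tumours, 0 genes passed when only these groups were fitted, and 0 when age was a covariate over the 6 tumours. Between all tumours and normal gland, array weights gave 7545 genes and 21 of the 45 members, an adjusted p under 0.1 gave 17 members, a minimum log2 change of 1 gave 1213 genes and 7 members, and leaving out both deviating arrays gave 1244 genes, beside 4043 genes and 11 members as reported. For metastatic tumours against normal gland (2419 genes, 7 members), array weights gave 6611 and 23, an adjusted p under 0.1 gave 3887 genes, a minimum change of 1 gave 978 genes, and leaving out both arrays gave 684 genes. For non-metastatic tumours against normal gland (3358 genes, 8 members), array weights gave 5448 and 14, only the groups compared gave 1606 and 5, an adjusted p under 0.1 gave 13 members, a minimum change of 1 gave 1230 genes, and leaving out both arrays gave 425 and 4. Without both arrays, 3 members were higher and 1 lower in non-metastatic tumours, beside 1 higher and 7 lower as reported. The cause of these shifts was not tested. With 1 array left out, genes past the threshold ranged from 0 to 42 (metastatic against non-metastatic), 1838 to 4093 (all tumours), 683 to 2822 (metastatic against normal) and 1387 to 3698 (non-metastatic against normal), and members from 0 to 0, 5 to 13, 1 to 9 and 3 to 10 in the same order. Replicate numbers name different mice: the correlation of deviations over 9 same-number pairs was -0.29 to 0.18, with 2 over 0.1. With the replicate block, members past the threshold were 8 for all tumours, 3 for metastatic tumours (of 1373 genes), 5 for non-metastatic tumours and 0 between the tumour groups. Median centring moved the median log2 change of all genes to 0.12 for all tumours and 0.15 for non-metastatic tumours against normal gland, beside 0.059 and 0.061 as reported. Members near the 30th percentile, such as Ackr1, Cxcr5 and Ccr3, have little signal over background.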
